A study of Rattus norvegicus with 40 samples.

Results

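Cytochrome P450 genes were followed in T cells taken from the kidneys and the blood of Dahl salt-sensitive (SS) rats. They were chosen by name: a gene model belonged to the set if any of its symbols was Cyp, then a number, 1 letter and a number, and if it stood in all 15 tables of the study. This gave 41 of 31677 gene models, with 45 symbols among them, and no measured value entered the choice. The SS rat is an inbred strain whose blood pressure rises on a salty diet. RNA was sequenced in 40 libraries, 4 for each of 10 groups, and each library was a pool of 3 rats. The kidney groups were SS/CRL rats on high-salt chow (HS), SS/CRL rats on low-salt chow (LS), SS/MCW rats on HS and SS/MCW rats on LS, all aged 10 weeks, and SS/MCW rats on LS aged 7 weeks. Circulating T cells were sampled for the same 5 combinations of rat type, chow and age. HS lasted 3 weeks. As background, SS/MCW and SS/CRL are colonies of the same strain, held at the Medical College of Wisconsin and at Charles River, and their base chows differ. The salt content of each chow and the sex of the rats are not given in the sources used here.

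Cytochrome P450 enzymes carry a heme group and use electrons passed on by a reductase to put oxygen into fats, steroids, vitamins and drugs. In the kidney most of them belong to the proximal tubule. There the Cyp4a and Cyp4f enzymes turn arachidonic acid into 20-HETE, which narrows vessels and slows tubular sodium transport, while Cyp2c and Cyp2j enzymes turn it into epoxides that widen vessels and hold back sodium channels. Salt-sensitive rats are a long-studied model of this pathway, and T cells are not known as a main site of it.

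The authors deposited 1 FPKM value (fragments per kilobase of transcript, scaled to sequencing depth) per group and comparison. Values of single libraries were not analysed here, so no SD among libraries is given. A gene model is said to have risen or fallen where the authors' Cuffdiff q was under 0.05. Each group stands in 2 to 4 tables that were normalised separately, and a level set across groups is the median over those tables. For members with at least 1 FPKM the tables of a group differed by at most 1.17-fold. The T cell label was checked first. The 11 T cell markers summed to 248 to 958 FPKM in kidney cells, against 4898 to 6156 FPKM in circulating cells. The 14 matched proximal tubule markers summed to 3224 to 12650 FPKM in kidney cells and to at most 1.16 FPKM in circulating cells. The kidney libraries thus held much tubule RNA, with no T cell marker at 0, and a P450 value there cannot be given to a cell type. In such bulk samples fewer cells of a type and less RNA per cell cannot be told apart. The labels do not say whether the pools came from separate litters or days.

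P450 RNA was abundant in kidney cells and sparse in circulating cells. The 41 members summed to 1011 FPKM in SS/CRL HS kidney cells, 1861 FPKM in SS/CRL LS, 759 FPKM in SS/MCW HS, 1037 FPKM in SS/MCW LS at 10 weeks and 792 FPKM in SS/MCW LS at 7 weeks. In circulating cells the sum lay between 97.3 and 105 FPKM. A single gene model, that of Cyp4a2, Cyp4a8 and Cyp4b1, supplied 45.4% to 56.7% of the kidney sum, and Cyp2c23 came next. In circulating cells Cyp2s1 led, with 26.5% to 32.1% of the sum. Between 26 and 28 members reached 1 FPKM in a kidney group, against 9 or 10 in a circulating group. SS/CRL rats on LS gave the highest kidney level for 13 of 31 members that reached 1 FPKM in some kidney group, and for 25.5% of all such gene models.

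**Figure D1:**
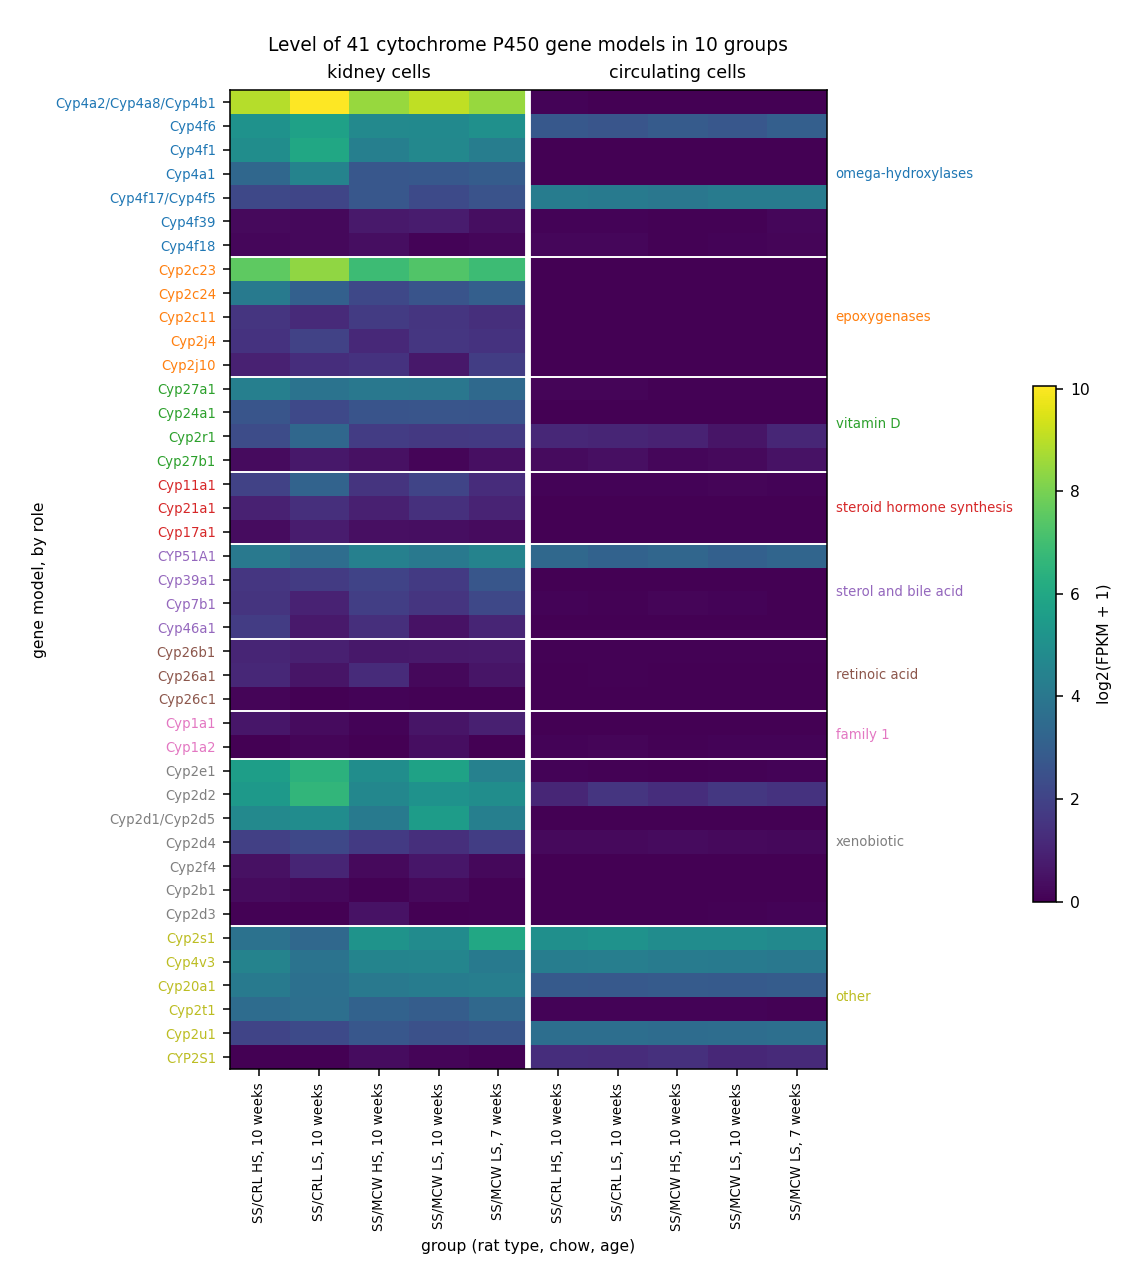
Level of each of the 41 gene models (rows, grouped by role) in the 10 groups (columns), as the colour of log2(FPKM + 1). The omega-hydroxylase model of Cyp4a2, Cyp4a8 and Cyp4b1 and the epoxygenase Cyp2c23 stand out in kidney cells, where the first lay between 359 and 1056 FPKM, and both are near 0 in circulating cells.

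Because several members fell together, their promoters are shown with short motifs that a search found on either strand. Each sequence below is the 150 bases before the gene's start in RefSeq on build GRCr8, written 5′ to 3′ on the gene's strand, which is not the build of the authors' gene models. Of the 45 symbols 38 had such a sequence, and the member promoters numbered 37. Capitals mark either of a pair of motifs. The TATA box was searched as TATAAA, which on the opposite strand reads TTTATA. The half-site bound by many nuclear receptors was searched as AGGTCA, which on the opposite strand reads TGACCT. Also searched were CAAAGTCCA, a core read by HNF4 (reverse TGGACTTTG), and TNGCGTG, a core of the dioxin response element (reverse CACGCNA). The promoters of the members that fell on HS in SS/CRL kidney cells come first, and those of Cyp2c24 and Cyp2s1, which differed between the rat types, close the list.
Cyp4a2 (chr5:134170909-134171058, minus strand): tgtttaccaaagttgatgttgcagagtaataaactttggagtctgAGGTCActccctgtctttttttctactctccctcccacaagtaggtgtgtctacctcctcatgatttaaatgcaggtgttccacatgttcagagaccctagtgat
Cyp4a8 (chr5:133970227-133970376, minus strand): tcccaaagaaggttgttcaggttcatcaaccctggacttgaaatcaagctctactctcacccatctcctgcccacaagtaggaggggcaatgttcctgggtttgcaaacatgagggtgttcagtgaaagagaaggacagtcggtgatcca
Cyp4b1 (chr5:134393117-134393266, minus strand): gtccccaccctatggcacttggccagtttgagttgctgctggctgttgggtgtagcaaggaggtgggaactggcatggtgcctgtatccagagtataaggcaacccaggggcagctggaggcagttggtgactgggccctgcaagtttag
Cyp4f1 (chr7:12672554-12672703, minus strand): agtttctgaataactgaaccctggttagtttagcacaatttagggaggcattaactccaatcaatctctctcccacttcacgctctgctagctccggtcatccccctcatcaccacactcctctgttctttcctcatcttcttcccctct
Cyp2c23 (chr1:252863068-252863217, minus strand): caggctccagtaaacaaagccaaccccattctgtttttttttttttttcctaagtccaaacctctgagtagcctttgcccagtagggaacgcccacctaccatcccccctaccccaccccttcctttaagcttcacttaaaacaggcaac
Cyp2d2 (chr7:115819282-115819431, minus strand): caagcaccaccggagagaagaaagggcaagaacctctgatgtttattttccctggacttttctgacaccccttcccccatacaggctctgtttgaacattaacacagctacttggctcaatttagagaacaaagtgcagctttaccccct
Cyp2e1 (chr1:205269817-205269966, plus strand): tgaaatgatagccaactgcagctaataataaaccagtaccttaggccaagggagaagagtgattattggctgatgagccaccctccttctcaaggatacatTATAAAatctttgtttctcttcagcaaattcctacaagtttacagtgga
Cyp11a1 (chr8:67318515-67318664, plus strand): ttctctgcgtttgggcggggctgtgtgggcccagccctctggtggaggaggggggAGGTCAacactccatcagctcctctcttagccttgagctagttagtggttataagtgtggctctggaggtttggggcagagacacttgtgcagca
Cyp2c24 (chr1:246286191-246286340, plus strand): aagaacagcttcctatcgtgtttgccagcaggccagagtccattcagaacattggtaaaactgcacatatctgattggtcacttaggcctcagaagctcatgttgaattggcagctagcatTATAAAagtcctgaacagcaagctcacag
Cyp2s1 (chr1:90453074-90453223, minus strand): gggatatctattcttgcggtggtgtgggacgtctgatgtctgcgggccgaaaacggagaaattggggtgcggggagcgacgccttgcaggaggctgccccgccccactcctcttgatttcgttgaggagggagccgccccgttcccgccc

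Matches were sparse and differed among the promoters shown. On either strand, AGGTCA stood in 7 of 37 member promoters, Cyp4a2 and Cyp11a1 among them, and in 8.76% of all 33469 promoters searched. TATAAA, again on either strand, stood in 10 of 37, Cyp2e1 and Cyp2c24 among them, and in 8.00% of all. The HNF4 core and the dioxin response core stood in 0 of 37, and in 0.215% and 2.55% of all promoters. Each promoter shown held at most 1 match, so none overlapped another. A match is a run of letters and not a measured binding site.

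High salt was set against low salt in the kidney cells of each rat type to ask what the salty diet changed. In SS/CRL rats 6 of 27 members tested fell and 0 rose, where 3.07% of all gene models tested fell and 2.44% rose. Those that fell were Cyp4a2/Cyp4a8/Cyp4b1, Cyp4f1, Cyp2c23, Cyp2d2, Cyp2e1 and Cyp11a1, so they came from the omega-hydroxylases, the epoxygenases, the drug-handling enzymes and steroid synthesis. The summed level was 1011 FPKM on HS, against 1899 FPKM on LS. Where the higher group reached 1 FPKM and neither group was at 0, 13 of 31 members had a positive log2 fold change and the median was -0.24, against 0.05 over all gene models. It was -0.45 over members that reached 5 FPKM in the higher group. Counting members with an unadjusted p under 0.05 in the authors' deposited table gave 9. The calls rest on Cuffdiff's own p: with its test statistic read against a normal curve and adjusted over all gene models, 0 of the 27 passed, and 0 members passed in the comparisons of rat type and age. How many of all gene models passed under this reading is not given here, so these counts do not set the members apart from other genes.

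In SS/MCW kidney cells 0 of 29 members passed on HS against LS, where 0.433% of all gene models tested passed in either direction. The authors' deposited table gave 2 members an unadjusted Cuffdiff p under 0.05, Cyp2d1/Cyp2d5 and Cyp2e1, and reading its test statistic against a normal curve called 0. The median log2 fold change was -0.06, equal to that over all gene models. The salt effects of the rat types were compared directly with a z test of the difference, adjusted by the Benjamini-Hochberg method over 16429 gene models. Of 27 members 0 differed, and 0 of all gene models did. When the standard errors were derived from Cuffdiff's p instead, 0 members and 60 of all gene models passed. Over the gene models compared, the z scores of the main test had an SD of 0.61, less than a standard normal curve has. With standard errors from Cuffdiff's p the SD was 1.08. The main standard errors were thus probably too large. The intervals of single members given below use them and are probably too wide. A fall called in SS/CRL rats and missed in SS/MCW rats is therefore not shown to differ between them.

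**Figure D2:**
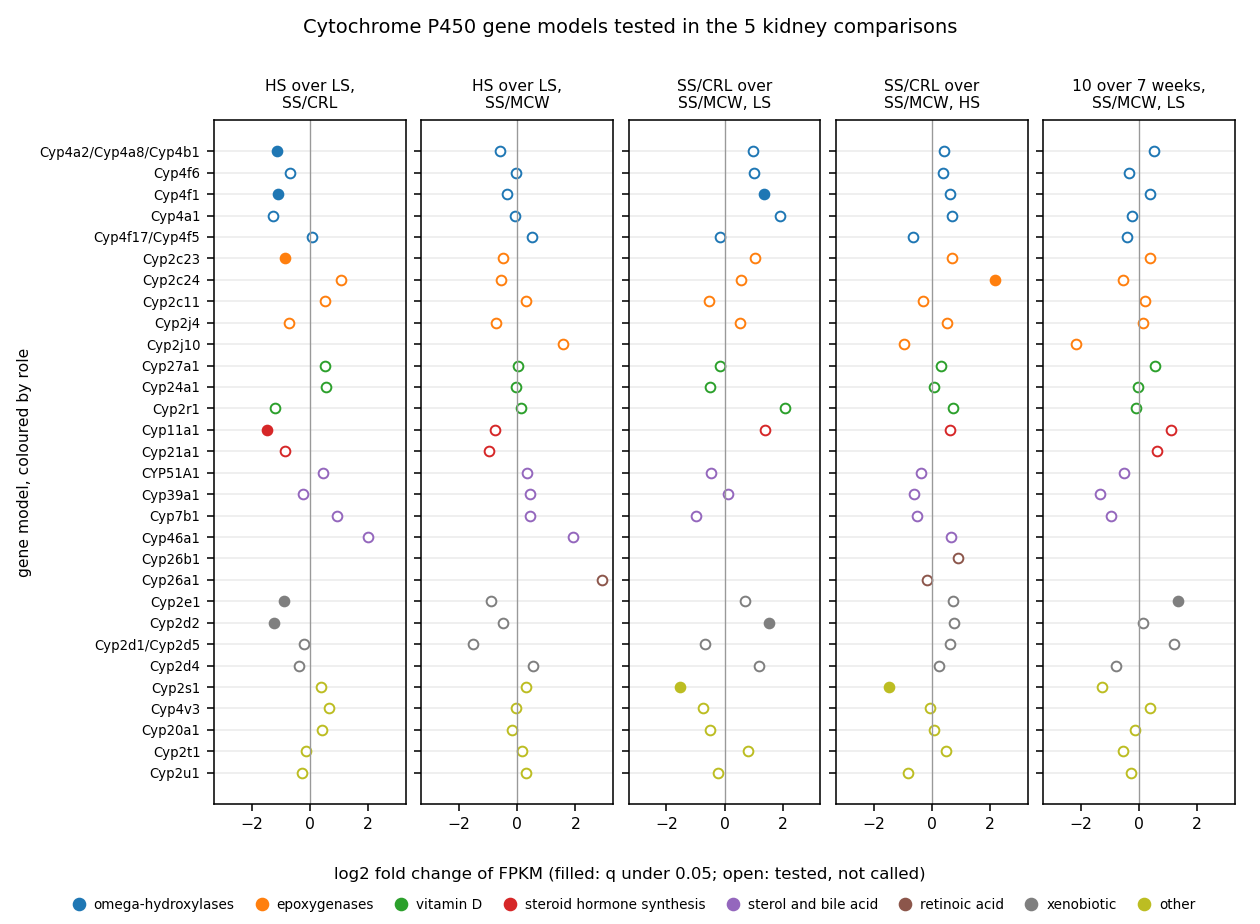
Log2 fold change of FPKM for the 30 members tested in at least 1 of the 5 kidney comparisons, 1 panel per comparison, with called members filled and others open. Called members of the SS/CRL salt comparison lie between -1.50 and -0.85, and no point is filled in the SS/MCW salt comparison.

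The rat types were compared on each chow, and SS/MCW rats at each age. On LS, 2 members were higher in SS/CRL than in SS/MCW kidney cells, Cyp4f1 and Cyp2d2, and 1 was lower, Cyp2s1, of 25 tested. The background was 1.36% higher and 0.444% lower. On HS, Cyp2c24 was higher in SS/CRL kidney cells and Cyp2s1 lower, of 29 tested, with 2.75% of all gene models higher and 2.97% lower. At 10 weeks against 7 weeks, Cyp2e1 rose and 0 members fell, of 27 tested, where 0.774% of all gene models rose and 0.297% fell. In all, 8 members were called in at least 1 kidney comparison, 22 were tested without a call, and 11 were tested in none of them. No share of all gene models is given here for a call in at least 1 of the 5. These pooled counts are therefore not read against a background. The 5 comparisons within kidney cells, called kidney comparisons here, share groups, so their results are not independent of each other.

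Omega-hydroxylases held 7 gene models, of which Cyp4a2/Cyp4a8/Cyp4b1 was by far the most abundant P450 of the kidney cells. This model joins genes of arachidonic acid omega-hydroxylases with Cyp4b1, which acts on fatty acids and foreign compounds. It measured 488 FPKM in SS/CRL HS, 1056 FPKM in SS/CRL LS, 362 FPKM in SS/MCW HS, 541 FPKM in SS/MCW LS at 10 weeks and 359 FPKM in SS/MCW LS at 7 weeks. SS/CRL rats on LS were thus highest, and the other groups lay between 359 and 541 FPKM. In the comparison's own table it had 488 FPKM on HS and 1077 FPKM on LS in SS/CRL rats, a log2 fold change of -1.14 with q = 0.0106 by the authors' deposited table. In SS/MCW rats the values were 362 FPKM on HS and 550.3 FPKM on LS, with a log2 fold change of -0.60 and q = 0.9996 by the authors' deposited table. The difference of the salt effects between the rat types was -0.54 on the log2 scale, with a 95% interval of -2.81 to 1.73.

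Cyp4a1, an omega-hydroxylase of fatty acids best known from rat liver, was modelled on the same interval, chromosome 5 from 137769865 to 138316870 on build rn5. Reads of these related genes may have been split between the models, so the levels of single Cyp4a genes are uncertain. Cyp4a1 had 9.13 FPKM in SS/CRL HS and 21.5 FPKM in SS/CRL LS kidney cells, with 5.65 FPKM in SS/MCW HS, 5.82 FPKM in SS/MCW LS at 10 weeks and 6.59 FPKM in SS/MCW LS at 7 weeks. SS/CRL LS was highest in both models, while the order of the other groups differed, and Cyp4a1 did not pass in any kidney comparison, and for HS over LS in SS/CRL rats q = 0.591 by the authors' deposited table. Cyp4a3 was not analysed here.

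The Cyp4f genes, which hydroxylate arachidonic acid and leukotriene B4, split into abundant and scarce members. Cyp4f1 (chromosome 7 from 15338293 to 15349887) had 29.8 FPKM in SS/CRL HS, 62.5 FPKM in SS/CRL LS, 19.3 FPKM in SS/MCW HS, 24.5 FPKM in SS/MCW LS at 10 weeks and 18.2 FPKM in SS/MCW LS at 7 weeks. It fell on HS in SS/CRL rats, with 29.8 FPKM on HS and 63.8 FPKM on LS, a log2 fold change of -1.10 and q = 0.00171 by the authors' deposited table. On LS it was higher in SS/CRL rats, with 62.5 FPKM against 24.2 FPKM in SS/MCW rats, a log2 fold change of 1.37 and q = 0.00524 by the authors' deposited table. Both calls turn on the high value of SS/CRL rats on LS. Its neighbour Cyp4f6 had 33.6 FPKM in SS/CRL HS, 53.1 FPKM in SS/CRL LS, 25.7 FPKM in SS/MCW HS, 26.5 FPKM in SS/MCW LS at 10 weeks and 31.9 FPKM in SS/MCW LS at 7 weeks. Its log2 fold change on HS in SS/CRL rats was -0.69, with q = 0.0732 by the authors' deposited table. The model of Cyp4f17 and Cyp4f5 had 3.54 FPKM in SS/CRL HS, 3.32 FPKM in SS/CRL LS, 5.54 FPKM in SS/MCW HS, 3.80 FPKM in SS/MCW LS at 10 weeks and 4.86 FPKM in SS/MCW LS at 7 weeks and did not pass in any kidney comparison. Cyp4f39, which makes skin lipids in the mouse, and Cyp4f18, which degrades leukotriene B4 in the mouse, stayed at or below 0.688 FPKM.

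Among 5 epoxygenases, Cyp2c23, the chief arachidonic acid epoxygenase of the rat kidney, dominated. Its kidney levels were 185 FPKM in SS/CRL HS, 328 FPKM in SS/CRL LS, 116 FPKM in SS/MCW HS, 160 FPKM in SS/MCW LS at 10 weeks and 118 FPKM in SS/MCW LS at 7 weeks. Cyp2c23 (chromosome 1 from 271223509 to 271248144) fell on HS in SS/CRL rats, with 185 FPKM on HS and 334 FPKM on LS, a log2 fold change of -0.85 and q = 0.00458 by the authors' deposited table. In SS/MCW rats it had 116 FPKM on HS and 162 FPKM on LS, with a log2 fold change of -0.49 and q = 0.9996 by the authors' deposited table. For the difference of these effects the estimate was -0.36 on the log2 scale, with a 95% interval of -2.01 to 1.29. The gene was also 1.06 log2 units higher in SS/CRL than in SS/MCW rats on LS, which did not pass, with q = 0.121 by the authors' deposited table.

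Cyp2c24, a member of the same subfamily, had its highest level on the other chow. It had 16.1 FPKM in SS/CRL HS, 7.55 FPKM in SS/CRL LS, 3.52 FPKM in SS/MCW HS, 5.12 FPKM in SS/MCW LS at 10 weeks and 7.23 FPKM in SS/MCW LS at 7 weeks. SS/CRL rats on HS stood above the rest. On HS it was higher in SS/CRL than in SS/MCW kidney cells, with 16.6 FPKM against 3.64 FPKM, a log2 fold change of 2.19 and q = 0.00149 by the authors' deposited table. Within SS/CRL rats its log2 fold change on HS was 1.06, with q = 0.256 by the authors' deposited table, and within SS/MCW rats -0.57. The salt effects differed by 1.63 log2 units with a 95% interval of -1.82 to 5.08, which did not pass. Cyp2c11, the male liver steroid hydroxylase that also makes epoxides, lay at 1.30 to 2.39 FPKM. Cyp2j4, an epoxygenase, lay at 1.24 to 2.93 FPKM and Cyp2j10 at 0.579 to 2.49 FPKM. None of these passed in a kidney comparison.

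Among the foreign-compound enzymes, close relatives were highest in different groups, a contrast that was not tested. Cyp2d2 (chromosome 7 from 123636788 to 123640858), a drug-metabolising hydroxylase, had 41.6 FPKM in SS/CRL HS, 97.1 FPKM in SS/CRL LS, 24.5 FPKM in SS/MCW HS, 33.8 FPKM in SS/MCW LS at 10 weeks and 29.6 FPKM in SS/MCW LS at 7 weeks. It fell on HS in SS/CRL rats, with 41.6 FPKM on HS and 99.1 FPKM on LS, a log2 fold change of -1.25 and q = 0.00171 by the authors' deposited table. On LS it was higher in SS/CRL rats, with 97.1 FPKM against 33.5 FPKM in SS/MCW rats, a log2 fold change of 1.54 and q = 0.0159 by the authors' deposited table. The group that stood apart was again SS/CRL on LS. The nearby model of Cyp2d1 and Cyp2d5 (chromosome 7 from 123601119 to 123614683) was highest instead in SS/MCW LS at 10 weeks. It had 25.6 FPKM in SS/CRL HS, 28.9 FPKM in SS/CRL LS, 16.4 FPKM in SS/MCW HS, 46.5 FPKM in SS/MCW LS at 10 weeks and 19.2 FPKM in SS/MCW LS at 7 weeks. On HS in SS/MCW rats its log2 fold change was -1.51, with an unadjusted p of 0.0197 and q = 0.849 by the authors' deposited table. Cyp2d4 lay at 1.57 to 3.51 FPKM without a call, and Cyp2d3, which lies between Cyp2d2 and the joined model, did not exceed 0.409 FPKM. Close copies of Cyp2d may share reads, so single Cyp2d levels are uncertain.

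Cyp2e1, which oxidises ethanol and small solvents, was the third most abundant member in kidney cells. It had 48.0 FPKM in SS/CRL HS, 87.7 FPKM in SS/CRL LS, 29.3 FPKM in SS/MCW HS, 54.0 FPKM in SS/MCW LS at 10 weeks and 20.2 FPKM in SS/MCW LS at 7 weeks. LS groups at 10 weeks lay above the HS group of the same rat type, and the younger rats were lowest. In SS/CRL rats it fell on HS, with 48.0 FPKM on HS and 89.4 FPKM on LS, a log2 fold change of -0.90 and q = 0.00321 by the authors' deposited table. In SS/MCW rats the log2 fold change was also -0.90, from 29.3 FPKM on HS and 54.7 FPKM on LS, but q = 0.778 by the authors' deposited table. The difference of these effects had a 95% interval of -1.68 to 1.69. Cyp2e1 rose with age, with 54.6 FPKM at 10 weeks and 21.3 FPKM at 7 weeks, a log2 fold change of 1.36 and q = 0.00983 by the authors' deposited table. Cyp2f4, a lung enzyme, stayed at or below 1.04 FPKM and the model named Cyp2b1 at or below 0.232 FPKM. Cyp2b1 is the phenobarbital-inducible enzyme of rat liver. The model lies on chromosome 7 in build rn5, while RefSeq on build GRCr8 places Cyp2b1 on chromosome 1. Its identity is therefore uncertain.

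**Figure D3:**
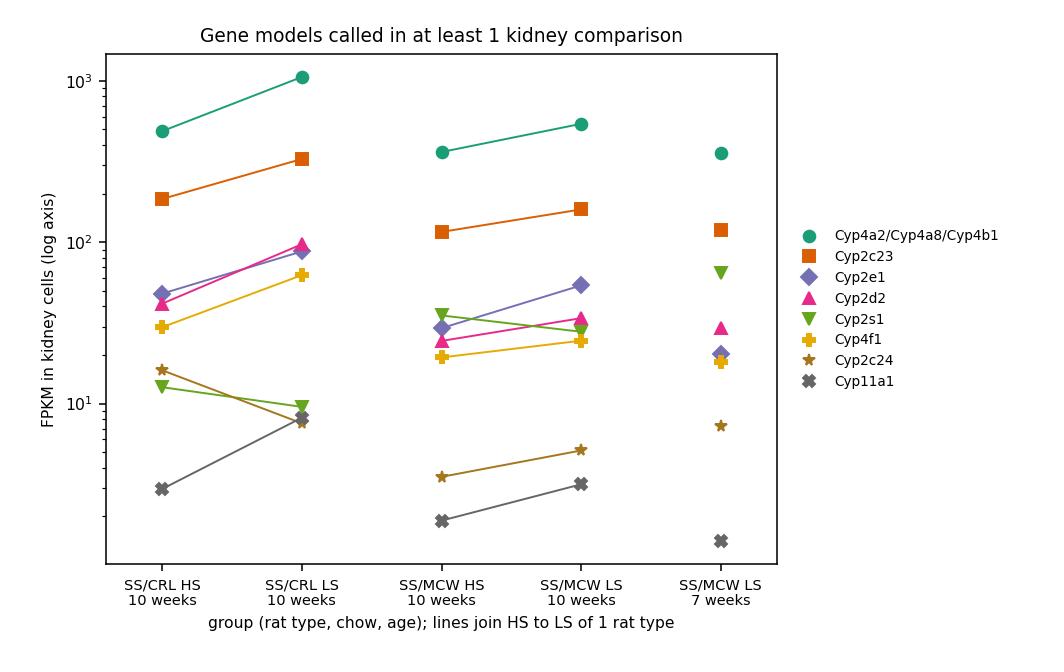
FPKM (log axis) in the 5 kidney groups of the 8 members called in at least 1 kidney comparison, with lines from HS to LS within a rat type. Cyp4a2/Cyp4a8/Cyp4b1, Cyp2c23, Cyp2d2, Cyp2e1, Cyp4f1 and Cyp11a1 peak in SS/CRL LS, and Cyp2s1 is lowest there at 9.54 FPKM.

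Of the vitamin D enzymes, those that make the storage form and the one that degrades the hormone were measured well, and the activating one was scarce. Cyp27a1, a mitochondrial hydroxylase of vitamin D and of bile acid precursors, had 19.4 FPKM in SS/CRL HS, 13.3 FPKM in SS/CRL LS, 15.5 FPKM in SS/MCW HS, 15.0 FPKM in SS/MCW LS at 10 weeks and 9.70 FPKM in SS/MCW LS at 7 weeks. Cyp2r1, the main 25-hydroxylase, had 4.01 FPKM in SS/CRL HS and 9.21 FPKM in SS/CRL LS, and 2.21 to 2.47 FPKM in the SS/MCW groups. Cyp24a1, which inactivates the hormone, lay at 3.59 to 5.33 FPKM. None of the 3 passed in a kidney comparison, although Cyp2r1 was 2.08 log2 units higher in SS/CRL than in SS/MCW rats on LS, with q = 0.120 by the authors' deposited table. Cyp27b1, which makes the active hormone in the proximal tubule, did not exceed 0.545 FPKM and was tested in none of them. Of 8 gene models of vitamin D handling outside the P450s, Slc34a3, a phosphate transporter of the proximal tubule, fell on HS in SS/CRL rats, with 17.3 FPKM on HS and 116 FPKM on LS. It was also higher in SS/CRL than in SS/MCW rats on LS, with 113 against 5.98 FPKM, and on HS, with 17.7 against 5.65 FPKM. Calb1, a calcium-binding protein of the distal tubule, was higher in SS/CRL rats on HS, with 52.9 against 25.3 FPKM. The other members of that list were not called in these cells.

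Steroid synthesis was represented by Cyp11a1, which cuts the side chain of cholesterol as the first step to all steroid hormones. Its levels were 2.96 FPKM in SS/CRL HS, 8.18 FPKM in SS/CRL LS, 1.88 FPKM in SS/MCW HS, 3.16 FPKM in SS/MCW LS at 10 weeks and 1.40 FPKM in SS/MCW LS at 7 weeks. Cyp11a1 (chromosome 8 from 62574084 to 62585611) fell on HS in SS/CRL rats, with 2.96 FPKM on HS and 8.36 FPKM on LS, a log2 fold change of -1.50 and q = 0.0466 by the authors' deposited table. This was the largest fall and the weakest q among the called members. Cyp21a1, the 21-hydroxylase, lay at 0.823 to 1.59 FPKM without a call, and Cyp17a1, the 17-hydroxylase, did not exceed 0.703 FPKM. Of 5 adrenal cortex markers 2 were matched. Mrap had 4.66 FPKM in SS/CRL HS and 7.96 FPKM in SS/CRL LS, and Star shares its gene model with Lsm1, at 21.5 and 15.5 FPKM in the same groups. Neither was called, and their part in the Cyp11a1 result was not tested. Cyp11b2 was not analysed here.

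Enzymes of sterol and bile acid metabolism did not pass in any kidney comparison. CYP51A1, the lanosterol demethylase of cholesterol synthesis, had 15.5 FPKM in SS/CRL HS, 11.2 FPKM in SS/CRL LS, 19.9 FPKM in SS/MCW HS, 15.5 FPKM in SS/MCW LS at 10 weeks and 21.3 FPKM in SS/MCW LS at 7 weeks. The oxysterol 7-alpha-hydroxylases Cyp39a1 and Cyp7b1 lay at 2.04 to 5.43 FPKM and at 0.954 to 3.53 FPKM. Cyp46a1, the cholesterol 24-hydroxylase of brain, lay at 0.413 to 2.49 FPKM. In SS/CRL rats 3 of 4 had a positive log2 fold change on HS, and in SS/MCW rats 4 of 4 did, with medians of 0.69 and 0.43. The retinoic acid hydroxylases Cyp26a1, Cyp26b1 and Cyp26c1 stayed at or below 1.34 FPKM. Cyp1a1 and Cyp1a2, classic targets of the aryl hydrocarbon receptor, stayed at or below 0.837 and 0.294 FPKM and were tested in none of the comparisons within kidney cells. Cyp1b1 was not analysed here.

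The remaining 6 gene models fall in none of these roles. Cyp2s1 (chromosome 1 from 83854676 to 83868967), an enzyme of epithelia that the aryl hydrocarbon receptor can induce, ran against the other called members. Its kidney levels were 12.6 FPKM in SS/CRL HS, 9.54 FPKM in SS/CRL LS, 35.2 FPKM in SS/MCW HS, 27.9 FPKM in SS/MCW LS at 10 weeks and 64.2 FPKM in SS/MCW LS at 7 weeks. Both SS/CRL groups lay below all SS/MCW groups. It was lower in SS/CRL rats on LS, with 9.54 against 27.4 FPKM in SS/MCW rats, a log2 fold change of -1.52 and q = 0.0191 by the authors' deposited table. On HS it was lower as well, with 13.0 against 36.2 FPKM, a log2 fold change of -1.48 and q = 0.00149 by the authors' deposited table. For 10 over 7 weeks its log2 fold change was -1.26, with q = 0.0977 by the authors' deposited table. A second model, spelled CYP2S1, did not exceed 0.261 FPKM in kidney cells.

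Cyp4v3, a fatty acid hydroxylase, had 21.4 FPKM in SS/CRL HS, 13.3 FPKM in SS/CRL LS, 22.1 FPKM in SS/MCW HS, 22.5 FPKM in SS/MCW LS at 10 weeks and 16.6 FPKM in SS/MCW LS at 7 weeks in kidney cells. Cyp20a1, whose substrate is not known, had 16.6 FPKM in SS/CRL HS, 12.2 FPKM in SS/CRL LS, 15.5 FPKM in SS/MCW HS, 17.5 FPKM in SS/MCW LS at 10 weeks and 18.4 FPKM in SS/MCW LS at 7 weeks. Both were lowest in SS/CRL LS. Cyp2t1 had 10.9 FPKM in SS/CRL HS, 11.9 FPKM in SS/CRL LS, 7.81 FPKM in SS/MCW HS, 6.81 FPKM in SS/MCW LS at 10 weeks and 9.47 FPKM in SS/MCW LS at 7 weeks. Cyp2u1, a hydroxylase of long-chain fatty acids, had 3.20 FPKM in SS/CRL HS, 3.81 FPKM in SS/CRL LS, 5.67 FPKM in SS/MCW HS, 4.56 FPKM in SS/MCW LS at 10 weeks and 5.31 FPKM in SS/MCW LS at 7 weeks. None of these 4 passed in a kidney comparison. Cyp4v3 came nearest on HS in SS/CRL rats, where its log2 fold change was 0.66 with q = 0.0714 by the authors' deposited table.

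Proximal tubule and T cell markers moved with several of these comparisons. On HS in SS/CRL kidney cells, 9 of 14 proximal tubule markers fell and 1 rose, with a median log2 fold change of -1.51 and a summed level of 7906 FPKM on HS, against 12906 FPKM on LS. Among them Miox, an inositol-degrading enzyme, had 1554 FPKM on HS and 3855 FPKM on LS, and Slc22a6, an organic anion transporter, 164 FPKM on HS and 863 FPKM on LS. Pck1, an enzyme of glucose synthesis, rose, with 1071 FPKM on HS and 364 FPKM on LS. Thick limb and distal tubule markers had a median of 0.53, with 2 of 8 called higher, and 1 of 11 T cell markers fell, with a median of -0.28. Whether the 6 P450 members fell apart from the tubule RNA was not tested.

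The markers shifted in the other comparisons as well. Between SS/CRL and SS/MCW rats, 4 of 14 proximal tubule markers were higher on LS and 5 of 14 on HS, with medians of 1.45 and 0.86, against P450 medians of 0.56 and 0.38. T cell markers were lower in SS/CRL rats on HS for 10 of 11, with a median of -2.05, and for 1 of 11 on LS, with a median of -0.55. Macrophage markers were lower for 7 of 8 on HS and 1 of 8 on LS. Thick limb and distal tubule markers summed to 2357 FPKM in SS/CRL HS kidney cells, 1568 FPKM in SS/CRL LS and 7176 FPKM in SS/MCW HS. In SS/MCW LS they summed to 4856 FPKM at 10 weeks and 15293 FPKM at 7 weeks. Of this list SLC12A1 was lower in SS/CRL than in SS/MCW rats on HS, with 171 against 654 FPKM. Aqp2 and Calb1 were higher there, with 355 against 98.3 FPKM and 52.9 against 25.3 FPKM. On HS in SS/MCW rats 1 of 14 proximal tubule markers fell, with a median of -0.61, and 2 of 11 T cell markers rose, with a median of 1.13. For 10 over 7 weeks the medians were 0.71 for proximal tubule markers and 0.74 for T cell markers, with 1 called higher in each list. Endothelial markers rose for 3 of 5 on HS in SS/CRL rats, and none of 3 B cell markers was called in a kidney comparison. Red cell markers differed widely: they summed to 679 FPKM in SS/CRL HS kidney cells and 3045 FPKM in SS/CRL LS, and to 450.3 FPKM in SS/MCW HS, 4583 FPKM in SS/MCW LS at 10 weeks and 649 FPKM in SS/MCW LS at 7 weeks. Of 4 such markers 3 fell on HS in SS/CRL rats, 2 fell on HS in SS/MCW rats and 2 rose at 10 over 7 weeks, the comparison in which Cyp2e1 rose. The macrophage marker C1qb rose with age as well. The part of these shifts in the P450 results was not tested.

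**Figure D4:**
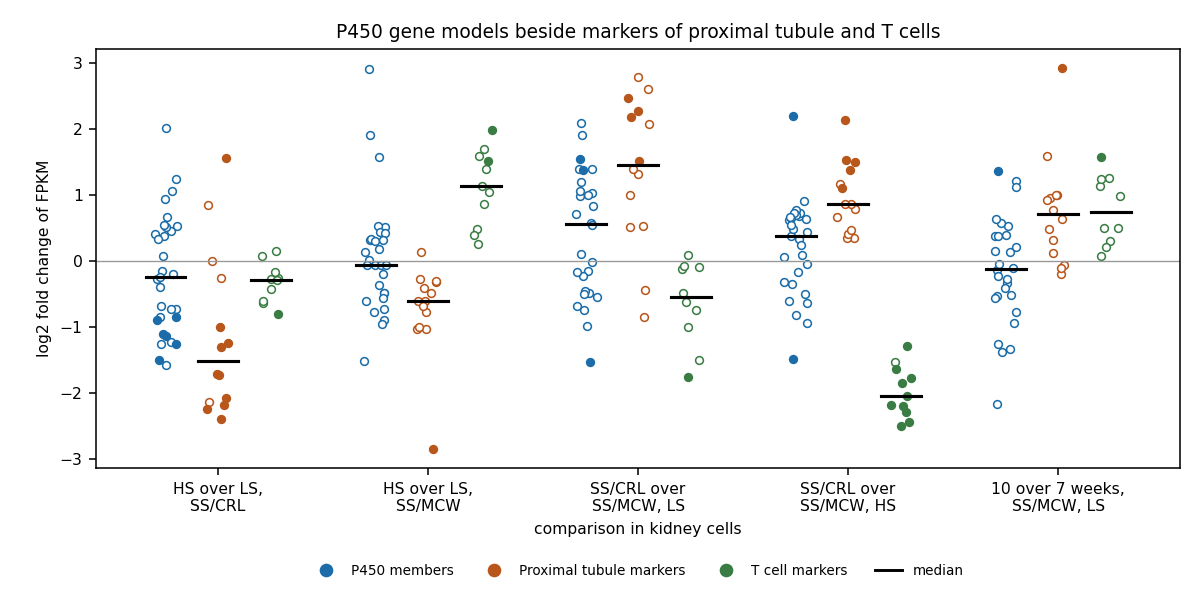
Log2 fold change of FPKM in the 5 kidney comparisons for P450 members, proximal tubule markers and T cell markers that reached 1 FPKM in either group, with called gene models filled and a bar at each median. In the SS/CRL salt comparison the P450 median is -0.24 and the proximal tubule median -1.51, and on HS the T cell markers of SS/CRL rats lie below those of SS/MCW rats.

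Partners and regulators of P450 enzymes were read beside the members. The list of redox partners and heme genes had 11 gene models, and on HS 0 of 11 passed in SS/CRL rats and 0 of 11 in SS/MCW rats. At an unadjusted Cuffdiff p under 0.05 the counts were 0 and 1. Por, the reductase that feeds electrons to microsomal P450s, lay at 34.7 to 46.7 FPKM in kidney cells and at 14.7 to 18.0 FPKM in circulating cells. Hmox1, which breaks down heme, was lower in SS/CRL than in SS/MCW kidney cells on HS, with 8.27 against 24.1 FPKM, and was the only member of that list called in a comparison within kidney cells.

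Among 16 gene models of nuclear receptors and sensors, 4 fell on HS in SS/CRL kidney cells and 0 rose. Among those that fell were Hnf4a, a master factor of proximal tubule and liver, with 338 FPKM on HS and 679 FPKM on LS, and Nr1h3, the oxysterol receptor, with 20.0 FPKM on HS and 42.3 FPKM on LS. Nr1i2, the xenobiotic receptor PXR, fell as well, with 6.22 FPKM on HS and 17.5 FPKM on LS. Hnf4a also stands among the proximal tubule markers. On LS, Nr1i2 and Hnf4a were higher in SS/CRL than in SS/MCW rats, with 17.1 against 3.34 FPKM and 666 against 234 FPKM. On HS only Hnf4a of this list was, with 347 against 121 FPKM. Ahr, the aryl hydrocarbon receptor, was not called and lay at 5.45 to 8.55 FPKM in kidney cells.

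The eicosanoid pathway outside the P450s had 15 gene models. On HS in SS/CRL kidney cells, Ephx2, the soluble epoxide hydrolase that degrades P450 epoxides, fell, with 3.38 FPKM on HS and 9.93 FPKM on LS. Ptgs1, a cyclooxygenase, rose in the same comparison, with 23.0 FPKM on HS and 9.67 FPKM on LS. Ptgs2, the inducible cyclooxygenase, fell on HS in SS/MCW rats, with 0.306 FPKM on HS and 4.16 FPKM on LS. With age Ptgs1 rose, with 17.8 FPKM at 10 weeks and 6.25 FPKM at 7 weeks, and Ptgs2 fell, with 4.14 and 17.9 FPKM. Alox5ap, a leukotriene synthesis protein of myeloid cells, was lower in SS/CRL than in SS/MCW rats on HS, with 2.92 against 16.8 FPKM. No gene of this list was called between the rat types on LS.

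Kidney cells were set against circulating cells from rats of equal type, chow and age. The labels give the libraries of both tissues shared numbers but do not say that the same animals gave both. In SS/CRL rats 13 of 31 members tested were higher and 4 lower in kidney cells on HS, and 14 higher and 5 lower of 28 on LS. In SS/MCW rats the counts were 18 higher and 3 lower of 30 on HS, 14 higher and 1 lower of 27 on LS at 10 weeks, and 17 higher and 3 lower of 31 at 7 weeks. The shares of all gene models tested, in the same order, were 30.6%, 31.5%, 30.6%, 26.6% and 32.9% higher, and 20.3%, 22%, 18.4%, 17% and 23.9% lower. These shares are large, because kidney and circulating cells differed at a large part of all gene models. Over the 5 comparisons 25 members were called higher at least once and never lower, 4 lower and never higher, and 1 in both directions. The other 11 were never called, and 8 of those were never tested. For a call at least once in 5 comparisons the share of all gene models is not given here. These counts are therefore not read against a background and do not set the members apart.

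Members higher in kidney cells in all 5 comparisons were Cyp4a2/Cyp4a8/Cyp4b1, Cyp4a1, Cyp4f6, Cyp2d4, Cyp2d2, Cyp20a1 and Cyp2c11, 7 of 26 tested in all 5, against 18.4% of all gene models. Cyp4a1 and Cyp2c11 were listed at 0 in every circulating group, so no fold is given for them. Cyp2d2, by contrast, was measured on both sides. It had 37.8 against 1.26 FPKM in SS/CRL HS, 87.6 against 2.14 FPKM in SS/CRL LS, 22.04 against 1.64 FPKM in SS/MCW HS, 29.8 against 2.34 FPKM in SS/MCW LS at 10 weeks and 27.9 against 1.86 FPKM in SS/MCW LS at 7 weeks, kidney cells first. Its log2 fold change lay between 3.67 and 5.35, and that of Cyp4f6 between 1.72 and 3.06. Cyp2c23 stayed at or below 0.0203 FPKM in circulating cells, yet was called higher in 1 of 5 comparisons. Reading the test statistic against a normal curve lowered the calls to between 3 and 11 members per comparison.

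**Figure D5:**
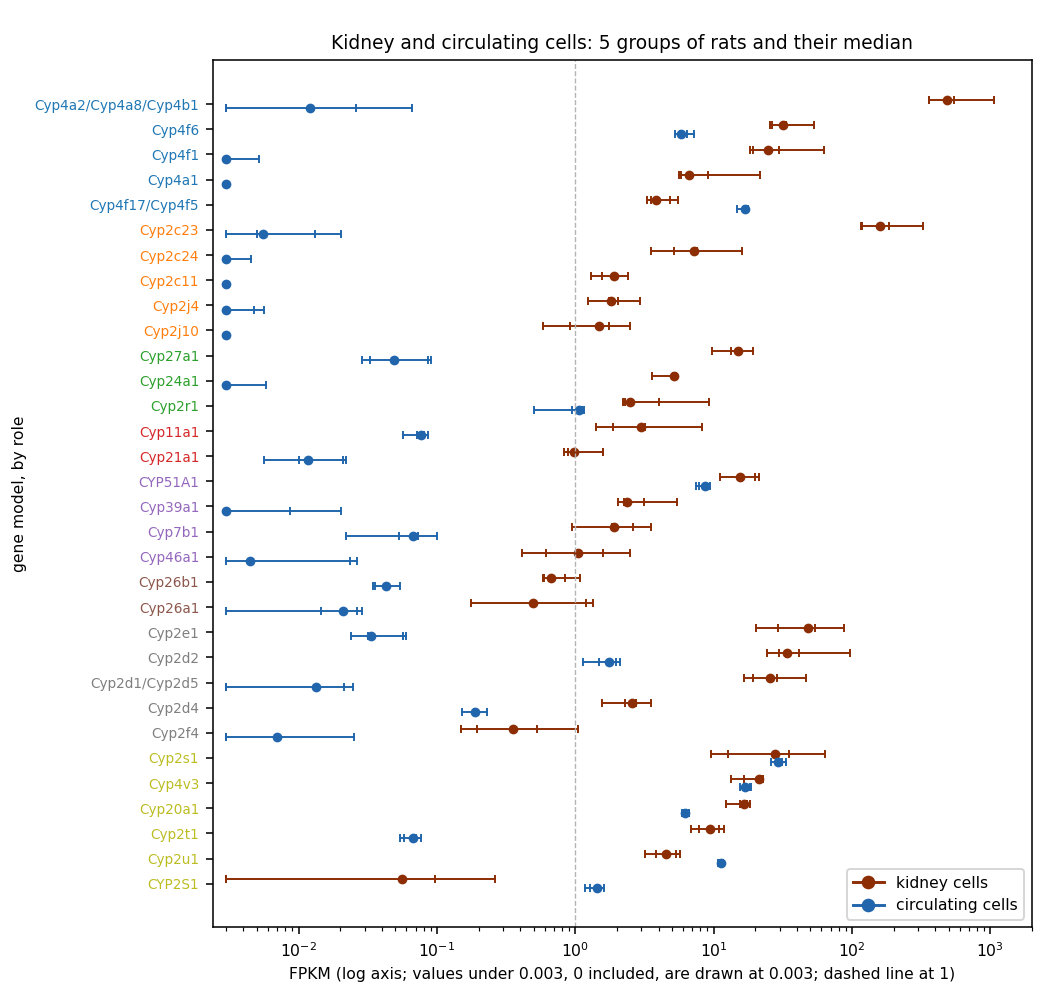
FPKM on a log axis for the 32 members that reached 1 FPKM in some group, with ticks for the 5 groups of rats and a dot at their median, kidney cells above circulating cells. Most members sit to the right in kidney cells, while Cyp4f17/Cyp4f5 and Cyp2u1 sit to the right in circulating cells, at 14.7 to 17.6 and 10.7 to 11.6 FPKM.

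A smaller number of members were called lower in kidney cells than in circulating cells. The model of Cyp4f17 and Cyp4f5 (chromosome 7 from 14681543 to 14983420) was lower in kidney cells in all 5 comparisons. It was the only 1 of 26 members tested in all 5 to be so, against 13.6% of all gene models. It had 3.19 against 19.6 FPKM in SS/CRL HS, 3.03 against 18.1 FPKM in SS/CRL LS, 4.99 against 16.3 FPKM in SS/MCW HS, 3.42 against 18.7 FPKM in SS/MCW LS at 10 weeks and 4.58 against 18.0 FPKM in SS/MCW LS at 7 weeks, kidney cells first. Its log2 fold change lay between -2.62 and -1.70. Cyp2u1 was lower in kidney cells in 4 of 5 comparisons, with log2 fold changes of -2.15 to -1.21, and the scarce model CYP2S1 in 4 of 5. Cyp2s1 was called in both directions. Kidney cells had more of it in SS/MCW LS at 7 weeks, with 60.5 against 27.3 FPKM, and less in SS/CRL HS, with 11.3 against 34.9 FPKM, and in SS/CRL LS, with 8.64 against 36.8 FPKM. Cyp4v3 was lower in kidney cells of SS/CRL LS rats only, with 12.1 against 20.3 FPKM, and was not called in the other groups.

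Within circulating cells 10 members were tested in each comparison: Cyp2s1, CYP2S1, Cyp4v3, Cyp4f17/Cyp4f5, Cyp2u1, CYP51A1, Cyp4f6, Cyp20a1, Cyp2d2 and Cyp2r1. Cuffdiff called 0 of 10 in each of the 5 comparisons. The background was 0.67% for HS over LS in SS/CRL rats, 0.107% for the same in SS/MCW rats, 0.541% for SS/CRL over SS/MCW on LS, 0.241% on HS and 1.94% for 10 over 7 weeks. Reading the test statistic against a normal curve also called 0 in each. The sole unadjusted p under 0.05 in the authors' deposited table was that of Cyp2d2 on HS in SS/CRL rats, with 1.14 FPKM on HS and 1.96 FPKM on LS, p = 0.00145 and q = 0.116. The most abundant circulating members varied little across the groups. Cyp2s1 had 31.4 FPKM in SS/CRL HS, 33.5 FPKM in SS/CRL LS, 28.4 FPKM in SS/MCW HS, 29.0 FPKM in SS/MCW LS at 10 weeks and 25.9 FPKM in SS/MCW LS at 7 weeks. Cyp4v3 had 18.2 FPKM in SS/CRL HS, 18.5 FPKM in SS/CRL LS, 17.0 FPKM in SS/MCW HS, 16.6 FPKM in SS/MCW LS at 10 weeks and 15.4 FPKM in SS/MCW LS at 7 weeks. Cyp4f17/Cyp4f5 had 17.6 FPKM in SS/CRL HS, 16.5 FPKM in SS/CRL LS, 14.7 FPKM in SS/MCW HS, 16.9 FPKM in SS/MCW LS at 10 weeks and 17.1 FPKM in SS/MCW LS at 7 weeks. No group stood apart in these. Cyp2u1 lay between 10.7 and 11.6 FPKM, CYP51A1 between 7.48 and 9.46 FPKM, Cyp20a1 between 5.90 and 6.601 FPKM and Cyp4f6 between 5.22 and 7.205 FPKM. Without the spread among libraries, such ranges do not show that the groups were equal.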

How the data were processed

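RNA of 40 libraries of kidney and circulating T cells was sequenced by the submitters, 4 libraries per group and, per the labels, 3 rats per library. The tools cutadapt, Trim Galore 0.2.5, TopHat, TopHat2 2.1.1, Cufflinks 2.2.1, Cuffdiff and build rn5 are named in the submitters' processing notes. Each of the 15 Cuffdiff tables lists 31677 gene models (14949 named by symbol). Per the file headers the authors gave 1 FPKM per group, a test statistic (a score) and a p-value and q-value for each gene model. The smallest deposited p was 5e-05. Depth per library is unknown, and no interval that needs it is given. The number of libraries limits the precision, and p-values measure only the spread between these pools.

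Fold changes, on the log2 scale, come from the deposited FPKM values, because a spreadsheet had altered part of the deposited fold change column. Calls are Cuffdiff q under 0.05 over all gene models of a table. Medians over lists leave out gene models under 1 FPKM in both groups or at 0 in either. The members, gene lists and tests were chosen with earlier results of these data known. Named are members called within a tissue, the most abundant members and a few renal P450 genes, beside up to 4 called genes of each list by level. Por, Ahr, Mrap and Star were named for their roles after their values were seen. One called gene of the receptor list is not reported here. For the difference of salt effects a standard error was the log2 fold change divided by the test statistic. That step was tested on simulated data, but in the real data its z scores spread less than a standard normal curve. Alternatives were a q under 0.01, p adjusted again over gene models with at least 1 FPKM, the test statistic read against a normal curve, as it stands and recentred, other minimum FPKM, a pseudocount of 1, and removal of 5 members with shared or repeated symbols. Motifs were searched in RefSeq promoters of build GRCr8. The scripts ran on scipy 1.17.1, numpy 2.4.6 and pandas 2.3.3 under Python 3.11.15, with matplotlib 3.10.9 for plots.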

Additional observations from a re-analysis of the deposited data

How the results depend on the processing

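Of 132 alternative values for 41 results, 99 kept their direction and size class, 29 moved and 4 reversed. With the test statistic read against a normal curve, the calls among members became 0, against 6, for HS over LS in SS/CRL kidney cells, and 0, against 3, for SS/CRL over SS/MCW on LS. They became 0, against 2, on HS, and 0, against 1, for 10 over 7 weeks, and recentring that statistic gave 0 in these comparisons too. In kidney over circulating cells the same reading called 9, against 17, for SS/CRL HS, 8, against 19, for SS/CRL LS, 4, against 21, for SS/MCW HS, 3, against 15, for SS/MCW LS at 10 weeks and 11, against 20, at 7 weeks. Recentring gave 10, 8, 6, 4 and 11 in the same order. The cause was not tested, and the counts over all gene models under this reading are not given here. A q under 0.01 left 1 call, Cyp4f1, for SS/CRL over SS/MCW on LS, and 4 of 6 for the SS/CRL salt comparison. Leaving out shared or repeated symbols left 1 call for SS/CRL over SS/MCW on HS, because it removes Cyp2s1. The median log2 fold changes within circulating cells lay near 0, and their sign turned without a minimum FPKM, to -0.031 for HS over LS in SS/MCW rats, -0.043 for SS/CRL over SS/MCW on LS and 0.042 for 10 over 7 weeks. With a minimum of 5 FPKM the median for SS/CRL over SS/MCW on LS was -0.0034. The pools could not be left out in turn. No paired analysis was possible because the files used here hold 1 value per group and none per pool.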
